A study of Mus musculus with 6 samples.

Results

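The subunits of the oxidative phosphorylation system were followed in the RNA of cultured mouse dermal fibroblasts. Members were the protein-coding genes of the deposited table whose symbol begins with Nduf followed by a, b, c, s or v and a number, with Uqcr, with Cox4 to Cox8, with Atp5 or with the mitochondrial prefixes mt-Nd, mt-Co, mt-Cytb and mt-Atp, or is Sdha, Sdhb, Sdhc or Sdhd. This gave 96 of the 23407 genes listed, 13 encoded in mitochondrial DNA and 83 in the nucleus, and 14 pseudogenes with a matching symbol were left out. Expression in cells of 12-week-old WT mice was compared with that of TSP2KO mice, which are labelled as lacking thrombospondin-2, a secreted matricellular protein encoded by Thbs2. Each group had 3 libraries of poly(A) RNA taken at passage 1 from dermis that had been freed of epidermis and fat, digested and cultured in serum. The labels give the genotype by name only, with no allele or strain. They do not state whether each library is a different animal, so part of the spread behind the p-values may be technical.

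Oxidative phosphorylation takes electrons from NADH at complex I (NADH dehydrogenase) and from succinate at complex II (succinate dehydrogenase), passes them through complex III (the cytochrome bc1 complex) to complex IV (cytochrome c oxidase), and uses the proton gradient so formed to make ATP at complex V (ATP synthase). Most subunits are nuclear genes whose proteins are imported, while a core set in complexes I, III, IV and V is transcribed inside the organelle from mitochondrial DNA as long precursors that are cut into separate mRNAs. Complex II is nuclear throughout. Cultured fibroblasts are rich in glycolysis but keep a working respiratory chain.

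Before the results, the library labelled WT 3 needs to be set apart. Its Thbs2 value was 8841 normalised counts, against 122061 in WT 1, 116720 in WT 2 and 5177, 6635 and 4891 in TSP2KO 1, 2 and 3. In this 1 gene the library goes against its label. It was kept in its labelled group, and most fold changes, medians and counts are given with and without it. Estimated depth lay between 14776502 and 34599855 reads a library. Fibroblast markers were the highest of the cell type lists in all 6 libraries, with summed values from 223659 to 632219. Of these markers, 9 of 12 had a fold change below 0 (median -0.48), and 10 of 12 without WT 3 (median -0.91). With all 6 libraries, Lum (-3.33) and Dcn (-2.80), matrix proteoglycans, were among the lower ones, while 3 markers lay above 0, the highest at 1.30. None passed with all 6 libraries. Without WT 3, 1 passed as higher and 2 as lower, and Lum and Dcn were not among them. With WT 1 and WT 2 averaged as the base, fibroblast markers lay at -0.78 on the log2 scale in WT 3 and between -1.11 and -1.08 in the TSP2KO libraries. Endothelial markers lay at 2.39 in WT 3 and at 1.30, 1.34 and -0.92 in TSP2KO 1, 2 and 3. On the same base, macrophage markers lay at -0.09 on the log2 scale in WT 3 and between -2.64 and -2.55 in the TSP2KO libraries, keratinocyte markers at 4.96 in WT 3 and at 3.65, 3.38 and -0.46 in TSP2KO 1, 2 and 3, and 8 cell cycle genes at 2.23 in WT 3 and at 1.96, 1.58 and 1.18. Of the tested markers, 15 of 15 macrophage genes had a fold change below 0 (2 passed; 12 without WT 3) and 11 of 13 keratinocyte genes above 0 (13 without WT 3; 0 passed in either fit). Their summed values ran from 3498 to 6229 in WT and from 749 to 869 in TSP2KO for macrophages, and from 696 to 58171 and from 725 to 20588 for keratinocytes, and no marker of either list was at 0 in all libraries. The macrophage receptor gene Fcgr1 was listed at 0 in the 3 TSP2KO libraries. The part of these cells and of cycling in the results below was not tested, and in bulk RNA fewer cells of a type and less RNA per cell cannot be told apart.

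All 13 mitochondrially encoded mRNAs were higher in each TSP2KO library than in WT 1 and WT 2, but in 12 of the 13 the library labelled WT 3 also lay above both other WT libraries. Of the members, 94 had a mean of at least 10 normalised counts and were tested with limma on log2(value + 1). None reached an adjusted p (Benjamini-Hochberg, over the 14707 genes tested) under 0.05, where 0% of genes passed as higher and 0.0612% as lower. At an unadjusted p under 0.05, mt-Co1 was the only member among the higher genes (3.66% of all genes) and Ndufa4l2 the only member among the lower genes (6.09%). The fold change was above 0 in 90 of 94 members, namely in 13 of 13 mitochondrially encoded and 77 of 81 nuclear ones, against 48.5% of all genes tested. The median log2 fold change was 0.69 for the mitochondrially encoded members and 0.26 for the nuclear ones, beside -0.01 for all genes.

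Without the library labelled WT 3, 2.43% of all genes passed as higher and 2.75% as lower, and 2 members were among them. These were mt-Nd4l, higher, and Ndufa4l2, lower. The medians were then 1.17 for the mitochondrially encoded members, 0.40 for the nuclear ones and -0.03 for all genes. At an unadjusted p under 0.05, 13 of 13 mitochondrially encoded and 30 of 81 nuclear members were higher, against 11.8% of all genes. The groups did not overlap, with all TSP2KO values above WT 1 and WT 2, in 69 of 94 members, against 21.1% of all genes, and with all of them below in 1 member, against 22.3%.

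**Figure D1:**
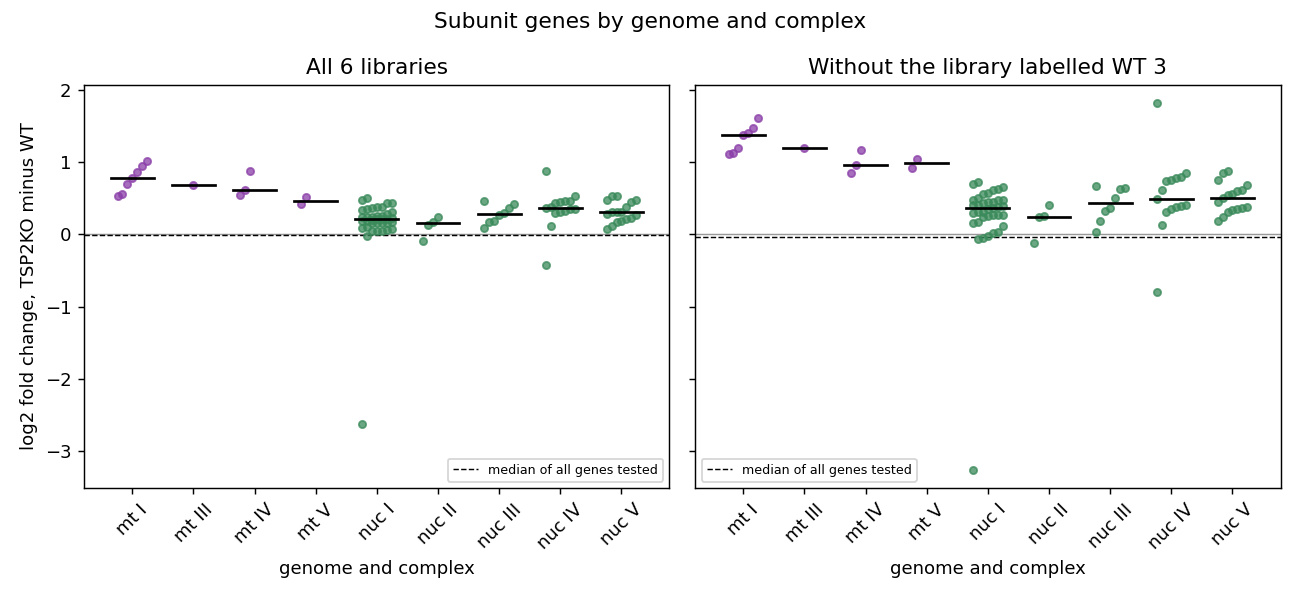
Log2 fold change (TSP2KO minus WT, on log2(value + 1)) of each tested subunit gene, by the genome that encodes it (mt, mitochondrial; nuc, nuclear) and its complex, with all 6 libraries at left and without the library labelled WT 3 at right. Points are genes, solid bars are medians and the dashed line is the median of all genes tested. Every mitochondrial gene lies above 0 in both panels. The lowest point is Ndufa4l2, placed in complex I by its symbol only.

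The 13 mitochondrially encoded genes took 0.201% of the library total in WT 1, 0.288% in WT 2, 0.616% in WT 3, and 0.604%, 0.413% and 0.626% in TSP2KO 1, 2 and 3. The groups overlapped through WT 3, and TSP2KO 2 was the lowest of its group. Group means were 0.369% ± 0.219 (SD, n = 3) for WT and 0.548% ± 0.117 (SD, n = 3) for TSP2KO, a difference of 0.179 percentage points that was smaller than the SD of the WT group. Against WT 1 and WT 2 alone the difference was 0.303 points. The nuclear members took 0.578%, 0.568% and 0.81% in WT 1, 2 and 3 and 0.777%, 0.819% and 0.771% in TSP2KO 1, 2 and 3, so that WT 3 again lay with the TSP2KO libraries.

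The balance between the genomes was taken within each library as the mean log2 level of the mitochondrially encoded members minus that of the tested nuclear members, which is nearly free of the scaling between libraries. It was 0.40, 0.73 and 1.62 in WT 1, 2 and 3 and 1.57, 0.97 and 1.60 in TSP2KO 1, 2 and 3. The group means differed by 0.46 with all libraries and by 0.82 without WT 3. Within complex I the mean balance was -0.14 ± 0.80 in WT and 0.48 ± 0.36 in TSP2KO, a difference of 0.62 (1.07 without WT 3). Counted by symbol, the nuclear genes of complex I include Ndufa4l2, although its paralog Ndufa4 is counted with complex IV. The log2 fold change of Ndufa4l2, -2.62 (-3.26 without WT 3), adds to the difference in complex I. The balance of complex I without Ndufa4l2 was not computed. The corresponding differences were 0.40 (0.78) in complex III, 0.32 (0.46) in complex IV and 0.15 (0.47) in complex V. With all libraries none of the 4 differences exceeded the SD of the WT group (0.80, 0.71, 0.34 and 0.57 in complexes I, III, IV and V). Without WT 3 all 4 exceeded the SD of WT 1 and WT 2 (0.18, 0.41, 0.36 and 0.14), an SD from only 2 libraries. In complexes III, IV and V the groups still overlapped without WT 3. There TSP2KO 2 (3.24, 3.57 and 0.146) lay below WT 2 (3.26, 3.72 and 0.152). Only in complex I, with Ndufa4l2 counted there, did all TSP2KO libraries lie above WT 1 and WT 2. The order of the complexes was not tested. Among nuclear members the median SD of log2 values was 0.188 in TSP2KO, 0.343 in WT and 0.217 between WT 1 and WT 2, and among mitochondrially encoded ones 0.433, 0.94 and 0.405.

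**Figure D2:**
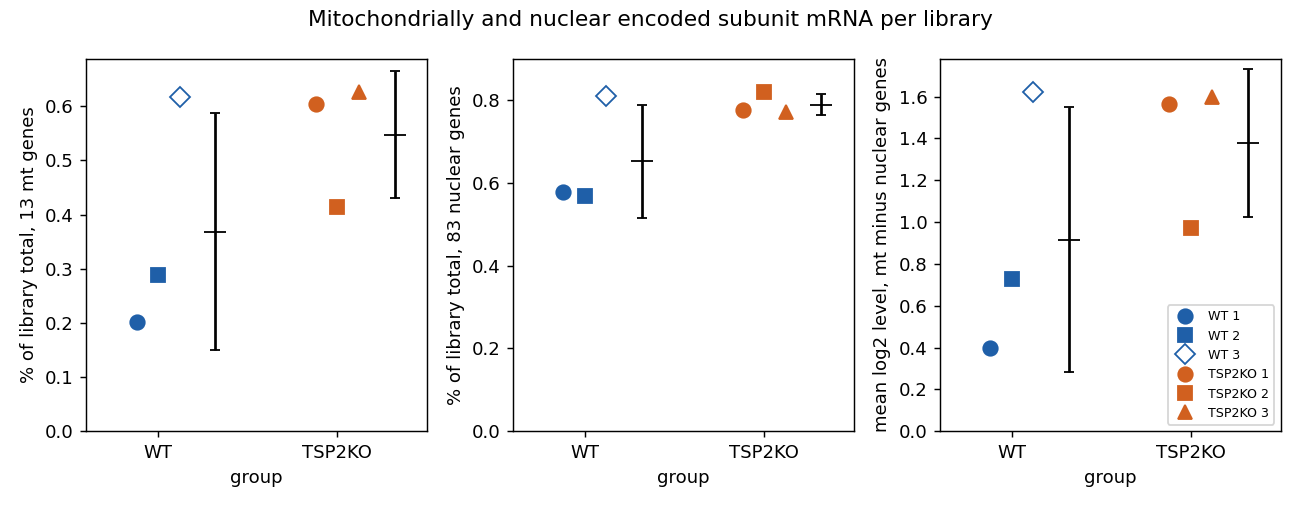
Share of the library total taken by the 13 mitochondrially encoded genes (left, %) and by the 83 nuclear members (middle, %), and the mean log2 level of mitochondrial minus nuclear members (right), per library. Bars are group mean ± SD (n = 3); WT 3, the open diamond, lies with the TSP2KO libraries in all 3 panels.

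Complex I holds 7 of the mitochondrially encoded genes, which form its membrane arm where protons are moved. The values of mt-Nd1 were 3119, 4656 and 12177 normalised counts in WT 1, 2 and 3 and 9417, 5766 and 10508 in TSP2KO 1, 2 and 3. Those of mt-Nd5 were 834, 1241 and 2935 in WT and 2886, 1802 and 3552 in TSP2KO. Those of mt-Nd4 were 1105, 1729.6 and 3905 in WT and 3386, 2299.7 and 4142 in TSP2KO. In all 3 genes WT 1 and WT 2 were the lowest libraries, and WT 3 stood within or above the TSP2KO range. The log2 fold change was 0.56 ± 0.50 (SE) for mt-Nd1, 0.87 ± 0.47 for mt-Nd5 and 0.70 ± 0.46 for mt-Nd4 (limma adjusted p = 0.776, 0.649 and 0.698), and 1.12, 1.38 and 1.20 without WT 3 (adjusted p = 0.0833, 0.0576 and 0.0681).

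The short mRNA mt-Nd4l had 28.1, 28.5 and 100.4 normalised counts in WT 1, 2 and 3 and 102, 65.2 and 103 in TSP2KO 1, 2 and 3. WT 3 equalled the high TSP2KO libraries, and the log2 fold change of 1.01 ± 0.53 did not pass (limma adjusted p = 0.619). Without WT 3 it was 1.61 ± 0.32 and passed (adjusted p = 0.0407), the only subunit mRNA of either genome that was called higher in that fit. mt-Nd3 had 70.6, 73.4 and 269.6 in WT and 217, 127 and 258 in TSP2KO, and mt-Nd2 had 523, 706 and 2012 in WT and 1543, 902 and 1619.5 in TSP2KO. In both, WT 3 was the highest of the 6 libraries, and the fold changes were 0.78 ± 0.55 and 0.53 ± 0.50 (1.41 and 1.11 without WT 3). mt-Nd6, which lies on the strand opposite to all the others, had 80.9, 137 and 315 in WT and 311, 213 and 381 in TSP2KO, or 0.95 ± 0.49 on the log2 scale (adjusted p = 0.617; 1.47 and 0.055 without WT 3). Its share of mt-Nd5, which it overlaps on the other strand at one end, averaged 10.5% in WT and 11.1% in TSP2KO. Whether the authors counted by strand is not given in the sources used here, so reads of the overlap cannot be told apart.

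In complex III the single mitochondrially encoded subunit is mt-Cytb, cytochrome b, which carries the quinone-binding sites. It had 4234, 6377 and 15173 normalised counts in WT 1, 2 and 3 and 13124, 8367 and 15531 in TSP2KO 1, 2 and 3. The log2 fold change was 0.69 ± 0.48 (limma adjusted p = 0.713) and 1.20 without WT 3 (adjusted p = 0.074). In complex V, mt-Atp6, the membrane subunit beside the rotor, had 3186, 4407 and 10592 in WT and 7362, 5164 and 9378 in TSP2KO, or 0.42 ± 0.45 (0.92 without WT 3). mt-Atp8, a small subunit that anchors the stalk, had 109, 127 and 356 in WT and 237, 185 and 329 in TSP2KO, or 0.51 ± 0.47 (1.04 without WT 3). For both ATP synthase mRNAs WT 3 was the highest of the 6 libraries.

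These 2 genes show how tightly the mitochondrial genome is packed, which bears on how reads are shared out. The mt-Atp8 gene spans 204 bases of the mitochondrial chromosome, positions 7766 to 7969 of mm10 on the plus strand, and its last 43 bases are also the start of mt-Atp6, in another reading frame. The sequence from the GENCODE M21 transcript is printed with the shared bases in capitals.
mt-Atp8: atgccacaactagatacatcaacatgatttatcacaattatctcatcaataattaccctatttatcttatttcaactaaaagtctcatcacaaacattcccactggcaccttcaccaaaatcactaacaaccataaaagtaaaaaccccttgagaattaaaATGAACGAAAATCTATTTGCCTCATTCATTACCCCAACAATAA
The shared bases make up 21.1% of mt-Atp8, and reads from them can belong to either gene. mt-Nd4l and mt-Nd4 likewise share 7 bases.

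The mitochondrially encoded mRNAs of complex IV form its catalytic core, and here mt-Co1, the subunit that holds the haem and copper centre where oxygen is reduced, differed from the rest. Its values were 7626, 12497 and 9297 normalised counts in WT 1, 2 and 3 and 18889, 13795 and 20824 in TSP2KO 1, 2 and 3. Without overlap between the groups, WT 3 lay between the other WT libraries. The log2 fold change was 0.87 ± 0.26 (limma unadjusted p = 0.0115, adjusted p = 0.318) and 0.85 ± 0.29 without WT 3 (adjusted p = 0.134). The values of mt-Co2 were 877, 1614 and 3755 in WT and 2893, 1910.0 and 3497 in TSP2KO. Those of mt-Co3 were 4127, 5512 and 11344 in WT and 9607, 6826 and 12169.9 in TSP2KO. In these 2 genes, as in the other 10, WT 3 stood far above WT 1 and WT 2, and the fold changes were 0.62 ± 0.51 and 0.54 ± 0.40 (1.17 and 0.96 without WT 3).

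Set against the mean of WT 1 and WT 2, WT 3 was 2.35- to 3.74-fold higher for the 12 mitochondrially encoded genes other than mt-Co1, and 0.924-fold for mt-Co1. As a share of the 13 genes together, mt-Co1 made up 29.4%, 32% and 12.9% in WT 1, 2 and 3 and 27%, 29.1% and 25.3% in TSP2KO 1, 2 and 3. WT 3 thus held a lower share of mt-Co1 than the other 5 libraries, which spanned 25.3% to 32%. Nuclear copies of these genes, described below, are left out of the shares. They held 6% to 7.83% of the summed value for mt-Co1 and 48.1% to 50.8% for mt-Co3, and none was found for mt-Cytb. Shares of single genes with copies summed were not computed. The ratio of mt-Co1 to mt-Cytb was 1.80, 1.96 and 0.613 in WT and 1.44, 1.65 and 1.34 in TSP2KO. A copy of part of mt-Co1 on chromosome 1, Gm29216, had 578, 857 and 665 in WT and 1095, 1092 and 1582 in TSP2KO. It takes reads of the same sequence, so these values are not a separate observation of mt-Co1. Without mt-Co1 the difference in genome balance between the groups was 0.45, against 0.46 with it.

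**Figure D3:**
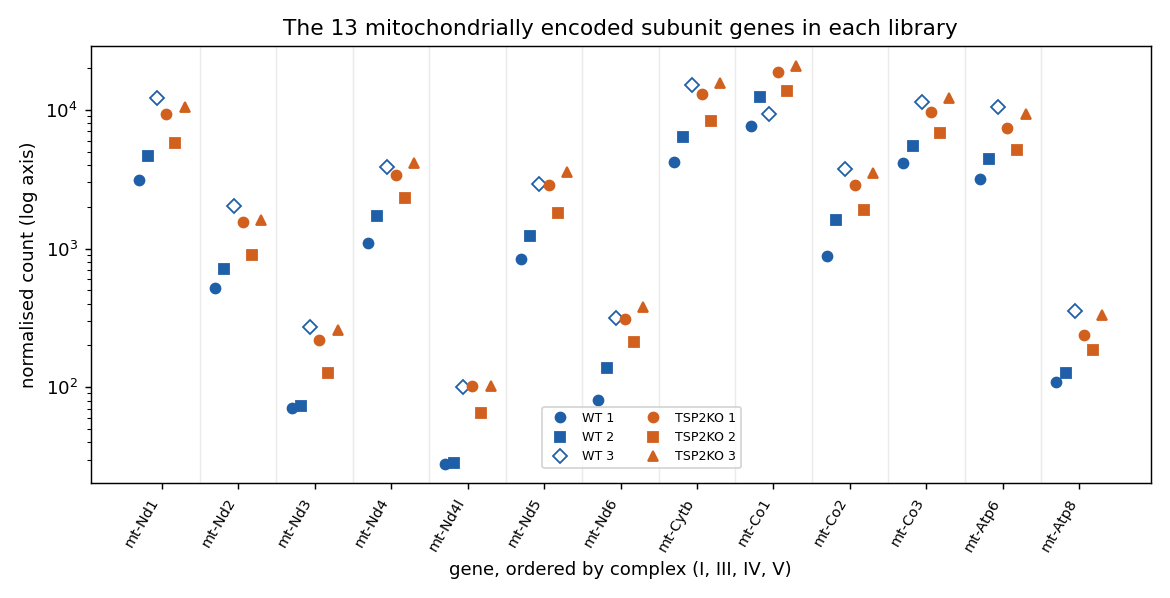
Normalised counts (log axis) of the 13 mitochondrially encoded genes in each library, ordered by complex. WT 3 (open diamond) lies above WT 1 and WT 2 in 12 of the 13 genes and between them in mt-Co1.

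**Figure D4:**
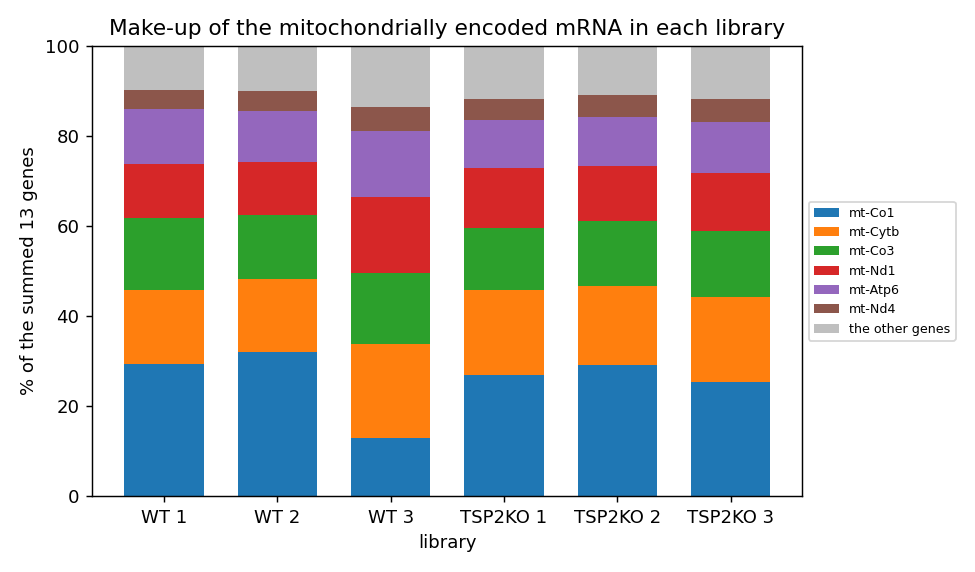
Share of each gene in the sum of the 13 mitochondrially encoded genes (%), per library. mt-Co1 takes 12.9% in WT 3 and between 25.3% and 32% in the other libraries, while WT 3 has the largest share of mt-Cytb, mt-Nd1 and mt-Atp6. Nuclear copies are left out.

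Levels between genes were compared per kilobase of a single annotated transcript for each gene. The highest mean over the 6 libraries was 10541 normalised counts per kilobase for mt-Co3, followed by 9811 for mt-Atp6, 9150.2 for mt-Cytb, 8946 for mt-Co1 and 7949 for mt-Nd1, and the lowest was 239.8 for mt-Nd4l. The order among these 5 changed between libraries, with mt-Co3 first in WT 1, TSP2KO 1 and TSP2KO 3, mt-Co1 first in WT 2 (8089) and TSP2KO 2 (8929), and mt-Atp6 first in WT 3 (15553). mt-Co1 was the fifth in WT 3, with 6017, and its place in the mean rests on that library in part. The median was 2004 per kilobase over the mitochondrially encoded members and 852 over the 80 tested nuclear members with a transcript length, whose highest was Atp5b with 4241. The mitochondrial rRNA mt-Rnr2, which poly(A) selection retains in part, had 3862, 6588 and 9574 normalised counts in WT and 8979, 6789 and 10790.2 in TSP2KO. Its log2 fold change was 0.48 ± 0.35 (limma adjusted p = 0.73; 0.79 and 0.167 without WT 3). The other rRNA, mt-Rnr1, had 293, 693 and 689 in WT and 587, 427 and 666 in TSP2KO, with WT 2 the highest of the 6 libraries, or 0.09 ± 0.37 (adjusted p = 0.966; 0.29 and 0.688 without WT 3).

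These levels are uncertain because the nuclear genome holds near-identical copies of mitochondrial genes. A stretch of chromosome 1 (24611535 to 24616197 of mm10, minus strand) carries 7 such copies, annotated as unprocessed pseudogenes, each matching a different gene. The copy of mt-Co3, Gm28437, is identical over 783 bases and was listed with 3883, 5101 and 11058 normalised counts in WT and 9069, 7047 and 11352 in TSP2KO. Those values nearly equal the values of mt-Co3 itself in every library. Between 48.1% and 50.8% of the summed value stood on the copies for mt-Co3, 46.4% to 51.4% for mt-Co2, 45.4% to 46.5% for mt-Atp6, 33.7% to 52.1% for mt-Nd4l, 25.5% to 43% for mt-Nd3, and 6% to 7.83% for mt-Co1. The reads of these genes were split between gene and copy in proportions that differed most between libraries for the 2 short genes mt-Nd3 and mt-Nd4l.

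With each gene summed with its copies, an alternative chosen after seeing the data, the mitochondrially encoded share was 0.266%, 0.371% and 0.828% in WT 1, 2 and 3 and 0.774%, 0.542% and 0.813% in TSP2KO 1, 2 and 3. No member passed in that fit with all 6 libraries. Without WT 3, mt-Nd4l passed again with a log2 fold change of 1.44 ± 0.26 (limma adjusted p = 0.0314), and mt-Nd3 passed with 1.42 ± 0.31 (adjusted p = 0.0481). mt-Nd3 had not passed on its own values without WT 3 (adjusted p = 0.0601). The other 11 mitochondrially encoded genes had adjusted p from 0.0549 to 0.133 in that fit.

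Among the 37 nuclear genes counted in complex I, Ndufa4l2 included, the fold change was above 0 in 35, with a median of 0.21 (0.37 without WT 3). Ndufs7, which carries the last iron-sulphur cluster before ubiquinone, had 532, 498 and 591 normalised counts in WT 1, 2 and 3 and 709.5, 696 and 688 in TSP2KO 1, 2 and 3. The TSP2KO libraries lay close together and above all WT libraries, with a log2 fold change of 0.37 ± 0.16 (limma adjusted p = 0.514; 0.44 and 0.158 without WT 3). Ndufb9, an accessory subunit of the membrane arm, had 895, 895 and 1005 in WT and 1067, 1039 and 1120.1 in TSP2KO, again without overlap. Its fold change was 0.21 ± 0.15 (adjusted p = 0.729; 0.26 and 0.352 without WT 3). The accessory subunits Ndufa3 and Ndufb6 had 0.51 ± 0.25 and 0.43 ± 0.22, with overlapping groups (adjusted p = 0.584 and 0.613), and 0.69 and 0.62 without WT 3 (adjusted p = 0.122 and 0.0949). Ndufs1, an iron-sulphur protein of the peripheral arm with high values (2031, 2381 and 2651 against 2496, 2182 and 2816), differed by 0.09, below its SE of 0.18 (0.18 without WT 3, with an SE of 0.19).

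Ndufa4l2, a paralog of Ndufa4 known as a target of hypoxia-inducible factor, went the other way. It lies at 127514967 to 127517154 of chromosome 10 on the plus strand. Its values were 499.6, 446 and 125 normalised counts in WT 1, 2 and 3 and 38.5, 41.4 and 71.2 in TSP2KO 1, 2 and 3. The groups did not overlap, with WT 3 nearer to the TSP2KO libraries than to WT 1 and WT 2. The log2 fold change was -2.62 ± 0.55 (limma unadjusted p = 0.00188, adjusted p = 0.175), and without WT 3 it fell by 3.26 ± 0.32 and passed (adjusted p = 0.00988). Ndufa4, which is now counted with complex IV, had 699, 888 and 1534 in WT and 1359.8, 1116 and 1658 in TSP2KO, a fold change of 0.47 ± 0.31 (adjusted p = 0.707; 0.79 and 0.0882 without WT 3). Per kilobase, Ndufa4l2 stood at 46.7%, 32.8% and 5.33% of Ndufa4 in WT and at 1.85%, 2.42% and 2.81% in TSP2KO.

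Complex II has no mitochondrially encoded subunit, and its 4 genes had the smallest median of the nuclear groups, 0.15 (0.25 without WT 3). Sdhd, a membrane anchor, had 1866, 2016 and 2738 normalised counts in WT and 2546, 2411 and 2747 in TSP2KO, or 0.24 ± 0.19 on the log2 scale (0.40 without WT 3). Sdhc, the other anchor, and Sdhb, which carries the iron-sulphur clusters, had 0.17 ± 0.20 and 0.13 ± 0.17 (0.25 and 0.24 without WT 3). Sdha, the catalytic flavoprotein, had 6657, 7644 and 6743 in WT and 6521, 6178 and 7135 in TSP2KO, or -0.09 ± 0.16 (-0.11 without WT 3). The limma adjusted p of the 4 genes lay between 0.756 and 0.913 (0.185 to 0.742 without WT 3), and only Sdha lay below 0.

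All 8 nuclear genes of complex III had a fold change above 0, with a median of 0.28 (0.44 without WT 3). Uqcr10, a small accessory subunit, had 461, 604 and 743 normalised counts in WT and 753, 767 and 945 in TSP2KO. The groups did not overlap, but WT 3 and TSP2KO 1 were nearly level, and the fold change was 0.47 ± 0.22 (limma adjusted p = 0.575; 0.63 and 0.119 without WT 3). Uqcr11 and Uqcrh, which are also small, had 0.41 ± 0.28 and 0.36 ± 0.28 and groups that overlapped through WT 3, without which they had 0.67 and 0.65. Uqcrq had 0.29 ± 0.17 (0.37 without WT 3). The core proteins Uqcrc1 and Uqcrc2, which face the matrix, had 0.18 ± 0.20 and 0.19 ± 0.19 (0.19 and 0.32 without WT 3).

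Of the 15 tested nuclear genes of complex IV, 14 had a fold change above 0, and the median was 0.36 (0.49 without WT 3). Cox5b, a subunit that binds zinc, had 427, 384 and 424 normalised counts in WT and 478, 534 and 499 in TSP2KO. Its copy Cox5b-ps, which the deposited table lists as protein-coding, had 199, 179 and 198 in WT and 245, 278 and 229.5 in TSP2KO. In both the groups did not overlap, with fold changes of 0.29 ± 0.16 and 0.38 ± 0.19 (limma adjusted p = 0.659 and 0.581), and 0.31 and 0.40 without WT 3 (adjusted p = 0.318 and 0.271). They are not independent, since the single-exon copy on chromosome 13 (21501029 to 21501418, minus strand) differs from the Cox5b transcript at 3 of 390 bases and held 31.5% to 34.3% of their sum. The 170 bases that include all 3 differences, in capitals, are printed to show how little separates their reads.
Cox5b: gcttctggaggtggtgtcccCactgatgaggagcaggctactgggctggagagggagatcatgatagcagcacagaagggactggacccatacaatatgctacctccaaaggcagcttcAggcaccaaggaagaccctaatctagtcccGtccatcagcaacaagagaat
Cox5b-ps: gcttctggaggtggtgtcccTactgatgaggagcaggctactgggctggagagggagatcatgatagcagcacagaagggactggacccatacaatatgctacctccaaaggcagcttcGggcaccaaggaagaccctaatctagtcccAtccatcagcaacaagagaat
Counted from the first base of the copy, with the Cox5b base first, the differences are C114T, A213G and G243A.

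Cox6b1, which joins the complex into dimers, had 700.4, 843 and 1325 normalised counts in WT and 1235, 1182 and 1641 in TSP2KO, or 0.54 ± 0.27 on the log2 scale (limma adjusted p = 0.606; 0.80 and 0.0731 without WT 3). WT 3 lay within the TSP2KO range. Cox6a1 (1535, 1222 and 1403 against 1419.8, 2179 and 1802) and Cox4i1 (1708, 2078 and 2507 against 2423, 2394 and 3182), the common forms of regulatory subunits, had 0.36 ± 0.21 and 0.35 ± 0.21 (adjusted p = 0.667 and 0.681), and 0.37 and 0.49 without WT 3. Their tissue-restricted paralogs were scarce. Cox4i2, the form known from lung and from cells short of oxygen, had 2.58, 3.53 and 26.9 in WT and 14.4, 7.27 and 21.4 in TSP2KO, at most 1.12% of Cox4i1 per kilobase. Its fold change was 0.88 ± 0.88 (1.82 ± 0.65 without WT 3, adjusted p = 0.151 by limma). Cox6a2, the form of heart and skeletal muscle, had between 18.6 and 61.2, with a fold change of -0.42 ± 0.51 (-0.80 without WT 3). Cox6b2, the testis form, had 2.58, 3.92 and 2.57 in WT and 9.77, 5.59 and 19.6 in TSP2KO, and Cox7a1, the muscle form, had between 1.72 and 6.7. The means of Cox6b2 and Cox7a1 were under 10, so neither was tested.

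All 17 nuclear genes of complex V had a fold change above 0, with a median of 0.31 (0.50 without WT 3). Atp5g3, which with Atp5g1 and Atp5g2 encodes the same mature c subunit of the rotor ring, had 1324, 1234 and 1985 normalised counts in WT and 2012, 2069 and 2088 in TSP2KO. The groups did not overlap, though WT 3 fell just short of TSP2KO 1, and the fold change was 0.47 ± 0.21 (limma adjusted p = 0.532; 0.69 and 0.0545 without WT 3). Atp5g1 had 289, 418 and 663 in WT and 606, 565 and 714 in TSP2KO, or 0.54 ± 0.31 (0.85 without WT 3). Atp5g2 was listed with only 57.4 to 120.3, but its identical copy Gm10175 on chromosome 7, a transcribed pseudogene, was listed with 458 to 904, and 87.5% to 90.8% of their sum stood on copies. The level of Atp5g2 is therefore not known from these values. Atp5b, the catalytic beta subunit, was highest in WT 1 (8793 against 5646 and 7432) and TSP2KO 2 (11798 against 7487 and 7596), and had 0.29 ± 0.26 (0.31 without WT 3). Atp5a1, the alpha subunit, had 5886, 5588 and 7512 in WT and 7222, 7486 and 7074 in TSP2KO, or 0.21 ± 0.18 (0.34 without WT 3).

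**Figure D5:**
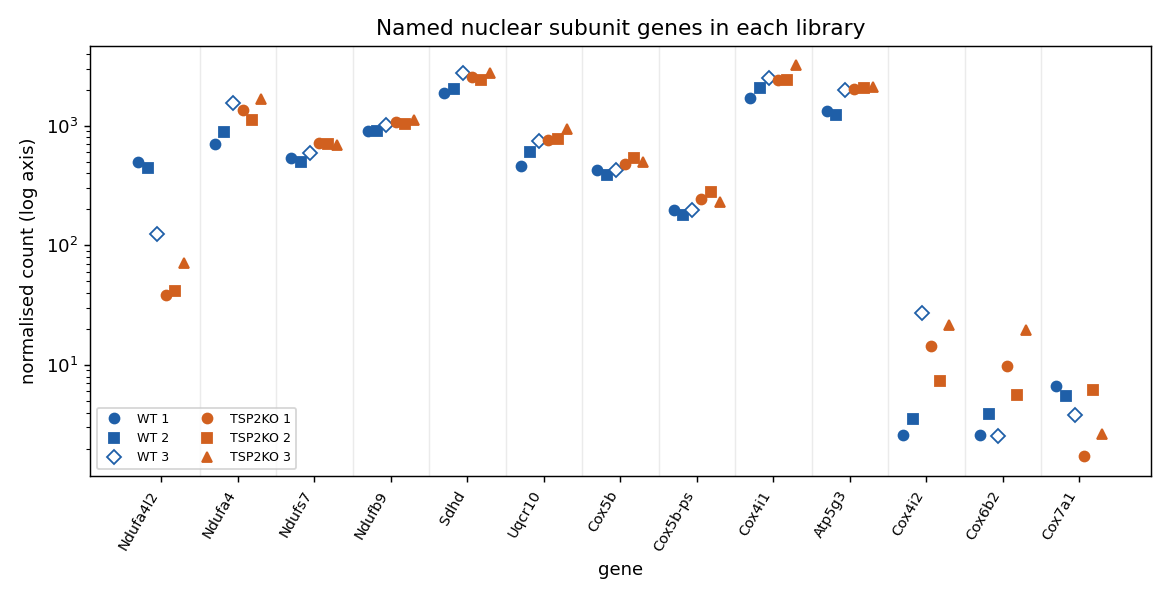
Normalised counts (log axis) of named nuclear subunit genes in each library. Ndufa4l2 is lower in the 3 TSP2KO libraries than in the WT libraries, Ndufs7, Ndufb9, Uqcr10, Cox5b, Cox5b-ps, Atp5g3 and the untested Cox6b2 are higher without overlap, and Cox4i2, Cox6b2 and Cox7a1 stay under 30 in every library.

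Near-identical copies also take part of the reads of other nuclear members. Such pseudogenes were found for 19 of the 83, and they held 49.2% to 55% of the sum for Atp5h, a stalk subunit of complex V, 55% to 60.4% for Ndufb4, 46.4% to 49% for Ndufa12 and 34.9% to 44.6% for Ndufs3, a core subunit of complex I. The levels of these genes are uncertain to that extent. With copies summed and all 6 libraries the nuclear median was 0.27, against 0.26.

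Over the tested members the groups did not overlap in 7 genes that were higher in TSP2KO (5.9% of all genes tested) and in 1 that was lower (8.27%). The 7 were mt-Co1, Ndufs7, Ndufb9, Cox5b, Cox5b-ps, Uqcr10 and Atp5g3 or 7 of 94, a share near that background. The library labelled WT 3 lay above both other WT libraries in 62 of the 81 tested nuclear members, and within the TSP2KO range in 47.

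Across the 80 tested nuclear members with a transcript length, shorter transcripts had the higher fold changes. Spearman's rho between log2 fold change and length was -0.43 over these genes and -0.14 over 12545 tested genes with a length, and with GC content it was 0.11 and 0.15. Without WT 3 it was -0.48 and -0.16 with length, and -0.02 and 0.10 with GC content. These correlations are across genes that share the same 6 libraries and are descriptions only. Length is that of a single annotated transcript per gene, which was not shown to be the form expressed. For Atp5g1 and Ndufb2, for example, it was 4715 and 4371 bases. Deviations of the nuclear members in single libraries had rho with length of 0.40 and 0.29 in WT 1 and WT 2 and of -0.31 in WT 3, -0.22, -0.14 and -0.32 in TSP2KO 1, 2 and 3. With GC content the values were 0.15, -0.08 and -0.25 in WT 1, 2 and 3 and -0.18, 0.27 and -0.10 in TSP2KO 1, 2 and 3. Over the 12545 genes, rho with GC content was furthest from 0 in TSP2KO 2, at 0.34, followed by -0.18 in WT 2. The part of transcript length, of GC content and of RNA quality in the fold changes was not tested.

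Nuclear subunit genes are known to share promoter elements for nuclear respiratory factor 1 (NRF1), for ETS factors such as GABP (nuclear respiratory factor 2) and for YY1, so their promoters were searched in the RefSeq table of build GRCm38.p6. The window covered 250 bases before to 50 after the start, and 66 of the 83 nuclear members had an entry. The letters searched, on both strands, were GCGCATGC for NRF1, CCGGAAG for ETS factors and AAGATGGC for YY1, which do not contain each other. The NRF1 letters were found in 10 of 66 member genes (15.2%), against 3.05% of the 27025 genes of the table. The ETS letters were found in 17 (25.8%, against 9.93%) and the YY1 letters in 10 (15.2%, against 3.19%). The genes of the table were not limited to those expressed in these cells, and no share over the genes tested was computed. A match is a description of these letters and not of binding.

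For each complex a promoter is printed, with matches in capitals, to show where they lie relative to the start at base 251. It had the most of these motifs, and among equals the smallest p, among the members considered. Ndufa2 of complex I and Atp5a1 of complex V were left out of this choice beforehand.
Ndufs7 (complex I, chr10:80249199-80249498, plus strand): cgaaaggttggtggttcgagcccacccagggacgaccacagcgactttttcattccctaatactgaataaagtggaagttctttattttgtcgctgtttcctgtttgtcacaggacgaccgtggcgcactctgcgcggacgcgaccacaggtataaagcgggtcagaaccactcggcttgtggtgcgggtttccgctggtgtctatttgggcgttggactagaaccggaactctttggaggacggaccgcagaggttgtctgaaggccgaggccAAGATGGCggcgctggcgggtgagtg
Sdhb (complex II, chr4:140961021-140961320, plus strand): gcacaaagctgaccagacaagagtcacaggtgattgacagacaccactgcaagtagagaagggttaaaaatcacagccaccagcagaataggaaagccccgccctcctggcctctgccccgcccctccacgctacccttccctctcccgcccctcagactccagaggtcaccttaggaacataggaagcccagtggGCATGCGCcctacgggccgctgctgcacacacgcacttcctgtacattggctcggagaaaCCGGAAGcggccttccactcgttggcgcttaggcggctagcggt
Uqcr11 (complex III, chr10:80406772-80407071, minus strand): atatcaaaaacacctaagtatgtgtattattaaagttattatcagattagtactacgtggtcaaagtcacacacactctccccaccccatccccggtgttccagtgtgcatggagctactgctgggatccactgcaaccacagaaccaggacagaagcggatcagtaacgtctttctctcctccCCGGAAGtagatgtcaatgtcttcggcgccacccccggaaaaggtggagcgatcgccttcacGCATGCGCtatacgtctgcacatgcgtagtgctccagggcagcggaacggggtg
Cox6a1 (complex IV, chr5:115348909-115349208, minus strand): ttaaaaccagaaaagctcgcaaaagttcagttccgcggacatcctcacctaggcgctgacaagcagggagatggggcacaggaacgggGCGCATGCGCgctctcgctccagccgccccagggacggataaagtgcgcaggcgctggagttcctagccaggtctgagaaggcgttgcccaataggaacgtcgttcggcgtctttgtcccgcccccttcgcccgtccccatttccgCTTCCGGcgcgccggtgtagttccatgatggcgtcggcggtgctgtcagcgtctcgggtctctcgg
Atp5k (complex V, chr5:108434350-108434649, minus strand): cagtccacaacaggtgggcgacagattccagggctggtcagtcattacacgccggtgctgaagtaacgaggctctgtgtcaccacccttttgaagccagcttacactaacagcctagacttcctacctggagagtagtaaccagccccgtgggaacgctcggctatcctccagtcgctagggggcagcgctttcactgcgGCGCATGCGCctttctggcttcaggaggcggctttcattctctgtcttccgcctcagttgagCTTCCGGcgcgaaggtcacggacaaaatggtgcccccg
Sdhb, Uqcr11, Cox6a1 and Atp5k each hold NRF1 and ETS letters, and in Cox6a1 and Atp5k the NRF1 letters occur on both strands of a single palindromic stretch. Ndufs7 holds the YY1 letters 25 bases into the transcript. The fold changes of the 5 genes were 0.37, 0.13, 0.41, 0.36 and 0.53, and 0.44, 0.24, 0.67, 0.37 and 0.87 without WT 3, and none passed in either fit.

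Of the factors themselves none passed with all 6 libraries. Nrf1 had 682, 623 and 647 normalised counts in WT and 685, 653 and 443 in TSP2KO, or -0.16 ± 0.21 on the log2 scale (-0.16 without WT 3). Gabpa, the DNA-binding subunit of GABP, had -0.06 ± 0.21, Yy1 -0.30 ± 0.21 and Tfam, the packaging and transcription factor of mitochondrial DNA, -0.22 ± 0.19 (limma adjusted p = 0.954, 0.711 and 0.765), and -0.18, -0.29 and -0.25 without WT 3. The coactivator Ppargc1b had 7.21, 8.63 and 43.6 in WT and 52.9, 30.2 and 53.4 in TSP2KO. Its fold change of 1.57 ± 0.68 did not pass (adjusted p = 0.519), and without WT 3 it was 2.34 ± 0.43 and passed (adjusted p = 0.0331). Its relative Ppargc1a had between 4.45 and 30.4 and -0.51 ± 0.73 (-0.49 without WT 3). Esrra, a nuclear receptor that works with these coactivators, had 28.3, 29.4 and 29.5 in WT and 33.9, 44.2 and 39.2 in TSP2KO, without overlap, or 0.41 ± 0.29 (adjusted p = 0.722; 0.42 and 0.479 without WT 3). Of 12 regulators of mitochondrial biogenesis, 4 had a fold change above 0 and the median was -0.11 (6 of 12 and -0.01 without WT 3).

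Other genes of the pathway were taken from lists and described by counts. None of their genes passed with all 6 libraries. In complex I assembly 12 of 18 tested factors were above 0 (median 0.04; 10 of 18 and 0.09 without WT 3), in complex II assembly 1 of 3 (-0.06; 0 of 3 and -0.08) and in complex III assembly 5 of 7 (0.14; 5 of 7 and 0.17). In complex IV assembly 16 of 21 were above 0 (0.18; 16 of 21 and 0.18 without WT 3) and in complex V assembly 2 of 4 (0.27; 3 of 4 and 0.19). Hccs, which attaches haem to cytochromes c and c1, had 68.5, 66.7 and 70.6 normalised counts in WT and 51.1, 52.6 and 53.4 in TSP2KO, lower without overlap, or -0.38 ± 0.23 (limma adjusted p = 0.685; -0.36 and 0.448 without WT 3). Tmem242, an assembly factor of ATP synthase, had 419, 532 and 874 normalised counts in WT and 871, 809 and 1006 in TSP2KO. It had 0.62 ± 0.28 on the log2 scale (limma adjusted p = 0.54) and passed without WT 3 with 0.92 (adjusted p = 0.047). Of the 78 proteins of the mitochondrial ribosome 62 were above 0 (median 0.13; 66 and 0.21 without WT 3), of the 23 Tomm and Timm proteins of import 19 (0.27; 19 and 0.39) and of 13 citric acid cycle enzymes 10 (0.19; 10 and 0.30). Timm17a, a channel subunit of the inner membrane translocase, had 0.53 ± 0.27 (adjusted p = 0.601; 0.80 and 0.0575 without WT 3). Suclg2, the GTP-forming subunit of succinyl-CoA ligase, had 666, 768 and 625 in WT and 554, 511.5 and 426 in TSP2KO, lower without overlap, or -0.47 ± 0.18 (adjusted p = 0.461; -0.53 and 0.153 without WT 3).

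Of the genes that maintain and transcribe mitochondrial DNA, 6 of 20 were above 0, with a median of -0.06 (6 of 20 and -0.09 without WT 3). Tefm, an elongation factor of that transcription, had 0.33 ± 0.23 (limma adjusted p = 0.717; 0.42 without WT 3), and Dguok, a nucleoside kinase that feeds its DNA synthesis, -0.26 ± 0.24 (adjusted p = 0.792; -0.44 without WT 3). Polrmt, the mitochondrial RNA polymerase, had 326, 189 and 202 normalised counts in WT and 166, 371 and 195 in TSP2KO, or -0.02 ± 0.36 (-0.12 without WT 3). Of 21 genes of mitochondrial RNA processing and stability, 13 were above 0 (median 0.09; 14 and 0.12 without WT 3). Rexo2, a nuclease that removes short RNA in mitochondria, had 472, 429 and 471 in WT and 687, 995 and 1065 in TSP2KO. All TSP2KO values were above the WT values, WT 3 lay within the WT range, and the fold change was 0.98 ± 0.21 (limma adjusted p = 0.182; 1.00 and 0.0571 without WT 3). Grsf1, which binds mitochondrial RNA in granules, was lower without overlap, with 209.6, 211 and 198 in WT and 155, 146 and 161 in TSP2KO, or -0.42 ± 0.18 (adjusted p = 0.516; -0.45 and 0.22 without WT 3). Tbrg4, an RNA-stability protein of the Fastk family, had 0.54 ± 0.42 (adjusted p = 0.742; 1.01 and 0.0756 without WT 3), and Trmt10c, a subunit of mitochondrial RNase P, -0.22 ± 0.18 (adjusted p = 0.755; -0.21 without WT 3). Electron carriers outside the symbol rule were Cycs, cytochrome c, with 0.20 ± 0.30 (0.50 without WT 3), and Cyc1, cytochrome c1 of complex III, with 0.31 ± 0.45 (0.26 without WT 3).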

How the data were processed

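Bulk RNA-seq of 6 libraries was analysed, 3 WT and 3 TSP2KO. The table deposited by the authors holds a normalised signal per gene, named as normalised counts; the submitters' processing notes name mm10, DESeq2, Partek and STAR with no role for any tool (Cell Ranger and Seurat 5.0.3 appear too). How reads were counted, with which strand setting and annotation, is not given in the sources used here. Between 68.6% and 73.9% of values were whole multiples of the worth of 1 read within 0.02 of a read, so whole reads were not recovered and no count test was run. Columns were matched to samples by their genotype and number; the suffixes in their names are not those of the labels. Genes with a mean of at least 10 were compared by limma 3.58.1 (R 4.3.3) on log2(value + 1), with a mean-variance trend, two-sided, adjusted by Benjamini-Hochberg over 14707 genes and tested on simulated data; this scale understates the change of low genes. Shares are percent of the summed deposited values.

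Members and lists were chosen with earlier results of these data known. Named were all mitochondrially encoded genes, members past the threshold, up to 4 nuclear genes per complex with the smallest p and the 2 with the highest mean, members whose groups do not overlap, and restricted paralogs with their partners; in the pathway lists genes could be named from the 4 with the smallest p, and not all of these are. A gene that this rule names is not reported here. Nrf1, Gabpa, Ppargc1a, Polrmt, Cyc1, Atp5k, Atp5g2, Atp5h, Ndufb4, Ndufa12, Ndufs3 and the markers Lum, Dcn and Fcgr1 were named in addition, after their values were seen. Complexes follow the symbol, except Ndufa4, so that its paralog Ndufa4l2 stayed in complex I. Lengths are of the GENCODE M21 principal transcript (95 members), the longest where several ranked equally. Near-identical copies aligned over at least 100 bases and 25% of the member at 95% identity. Coordinates are on mm10, counted from 1, with 1 base taken off the stop, which made 96.4% of genes identical to GENCODE M21. Alternatives were other pseudocounts, filters, scaling, weights, a replicate block, each library left out and copies summed.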

Additional observations from a re-analysis of the deposited data

How the results depend on the processing

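With all genes tested, 0 were higher and 9 lower in TSP2KO by limma (538 and 896 at an unadjusted p under 0.05). The 9 became 0 with voom weights, no filter, a mean of at least 100 or a pseudocount of 0.1, and 14 with a pseudocount of 10. With the replicate block it was 0, with 0 members called and unchanged medians of 0.69 and 0.26. Same-numbered libraries correlated at -0.42, -0.25 and -0.39 in their deviations from the group mean, and the other pairs at -0.47 to 0.55. With 3 libraries a group, such deviations cannot show whether the numbers mark a pairing. Leaving out 1 library gave 0 to 357 genes higher and 0 to 404 lower, with 0 to 1 member higher and 0 to 1 lower; all calls among members came without WT 3. Over the same fits the median was 0.28 to 1.17 for mitochondrially encoded and 0.16 to 0.40 for nuclear members, the share difference 0.0954 to 0.303 points and the difference in log2 balance 0.20 to 0.82. Copies summed gave a share difference of 0.221 points and a balance difference of 0.45. The sign of the fold change was kept by 86 to 94 of the 94 members in each alternative that tested them all, and by all mitochondrially encoded ones tested. The cause of these shifts was not tested. The depth in reads is estimated, and no interval from counting was given.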
